A study of Mus musculus with 12 samples.

Results

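The glutathione and NRF2 antioxidant genes described here are Gclc, Gclm, Gss, Gsr, Nqo1, Hmox1, Txnrd1, Srxn1, G6pdx and Pgd. These 10 genes were found by exact gene symbol among the 39423 genes of the count table, and each passed the filter on low counts in all 5 comparisons. RNA sequencing was done on 3T3-L1 cells, a mouse fibroblast-like preadipocyte line that turns into adipocytes when confluent cells are given MDI, which combines insulin with 3-isobutyl-1-methylxanthine and dexamethasone. Cells carried a nontargeting control siRNA (siCtrl, NC in the labels) or siRNA against PRMT1 (siPRMT1), an arginine methyltransferase. Every group received MDI, for 24 h or 72 h, so no library shows cells without it, and each of the 4 groups held 3 libraries. The siRNA was introduced by transient transfection of a single cell line, and which of the PRMT1 siRNAs was sequenced is not given in the sources used here. Nothing in the labels says whether replicates were separate cultures, so p-values measure the spread between these libraries.

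Glutathione is the main small thiol of the cell. Its synthesis starts with glutamate-cysteine ligase, made of the catalytic subunit Gclc and the modifier subunit Gclm, and is completed by Gss. Gsr returns oxidised glutathione to the reduced form with NADPH, which the pentose phosphate enzymes G6pdx and Pgd supply. NRF2, encoded by Nfe2l2, is a transcription factor that binds the antioxidant response element with a small MAF partner, while KEAP1 targets NRF2 for degradation and BACH1 competes for the same element. Nqo1, Hmox1, Txnrd1 and Srxn1 are standard NRF2 targets, and in adipocytes NADPH is also used to make fatty acids.

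The libraries held 15116462 to 42357137 counts on genes. Prmt1 itself was at 82.9, 83.4 and 91.3 FPKM (counts scaled to gene length in kilobases and to the library total) in the 3 siCtrl libraries and at 43.8, 38.6 and 41.4 in the 3 siPRMT1 libraries at 24 h. At 72 h it was at 111, 120.4 and 140.2 in siCtrl and at 62.0, 71.7 and 68.5 in siPRMT1. Prmt1 fell by 1.106 ± 0.0758 on the log2 scale at 24 h (adjusted p = 9.8e-04) and by 0.88 ± 0.0883 at 72 h (adjusted p = 1.2e-05), where ± is the standard error of the edgeR fit here and below. Replicate 3 of siCtrl at 24 h stood apart: the chi-square per gene against its 2 partner libraries was 30.8 and 50.6, and that of the other 10 replicate pairs ran from 4.14 to 15.8. Where a knockdown call or an adjusted p of the 10 genes at 24 h changed without this library, both values are given. The summed level of 9 adipocyte markers was 157.5 to 165 FPKM in siCtrl and 118 to 133 in siPRMT1 at 24 h, and 2911 to 3124 in siCtrl and 2250 to 2451 in siPRMT1 at 72 h. That of 9 preadipocyte and fibroblast markers was 1958 to 2055, 1815 to 1889, 728 to 778 and 929 to 1039 FPKM in the same order. The cells therefore carried adipocyte transcripts at 72 h although the labels call all of them preadipocytes. The summed level of 5 macrophage markers was 3.64 to 5.81, 4.77 to 4.83, 3.75 to 4.39 and 3.97 to 4.4 FPKM in that order. Ptprc was listed at 0 in every library and Adgre1 reached 0.01 FPKM at most, while Csf1r ran from 0.01 to 0.37, Cd68 from 1.35 to 2.35 and Cd14 from 1.36 to 4.42. With time in siCtrl, Csf1r and Cd68 were called higher and Cd14 lower, with log2 changes of 3.42, 0.54 and -0.85, and none of the macrophage markers was called with knockdown by edgeR or DESeq2 (Cd68 at 24 h had an unadjusted p of 0.012). All 4 endothelial markers were under 1 FPKM in every library. Of 2 tested, 1 was called lower with knockdown at 72 h by edgeR and 0 by DESeq2, and 2 were called higher with time in siCtrl.

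In the coordinates of the deposited table (GRCm38), all 10 genes are protein-coding, and counts are summed over their exons. Of the glutathione genes, Gclc lies at chr9:77754518-77794489, plus strand, and Gclm at chr3:122245557-122267215, plus strand. Gss lies at chr2:155563181-155592810, minus strand, and Gsr at chr8:33653238-33698162, plus strand. Nqo1 (chr8:107388225-107403205, minus strand) and Hmox1 (chr8:75093618-75100593, plus strand) share a chromosome with Gsr. Txnrd1 lies at chr10:82833951-82897724, plus strand, and Srxn1 at chr2:152105524-152111376, plus strand. The pentose phosphate genes G6pdx and Pgd lie at chrX:74409486-74429161, minus strand, and chr4:149149985-149166707, minus strand.

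Promoter windows were available for 7 of the 10 genes (not for Gclc, Gsr and Hmox1), 10 windows in all, each from 250 bases before to 50 bases after an annotated start (RefSeq, GRCm38.p6). Both strands were searched for the core of the antioxidant response element, TGACNNNGC. It was found in 5 of these 7 genes (Gclm, Txnrd1, Srxn1, G6pdx and Pgd), against 13.99% of the 27025 genes with a window in the whole table of promoters. In Txnrd1 and Pgd the hit lay only in window 2 of the gene. The 7 genes had 10 windows and the 27025 genes had 32851, so the number of windows per gene differed. By window, this core is in 12.4% of all 32851. The genes were gathered as glutathione and NRF2 antioxidant genes, so their share with this element is not independent of how they were picked. A variant with G in place of C, TGAGNNNGC, was searched after the first results were seen. It is in 19.8% of the 27025 genes and 17.6% of all windows, and among the 7 genes it was found only in Srxn1. Either core was thus in the same 5 of 7 genes, against 30.8% of the 27025, and in 5 of the 10 windows, against 27.8% of all windows. Windows of 4 genes are printed, picked with the knockdown results known, and no link between a window and a knockdown result was tested. They run 5′ to 3′ on the gene's strand, with either core in capitals: Nqo1 (chr8:107403156-107403455, minus strand), Srxn1 (chr2:152105274-152105573, plus strand), Gclm (chr3:122245307-122245606, plus strand) and G6pdx (chrX:74428831-74429130, minus strand).
Nqo1: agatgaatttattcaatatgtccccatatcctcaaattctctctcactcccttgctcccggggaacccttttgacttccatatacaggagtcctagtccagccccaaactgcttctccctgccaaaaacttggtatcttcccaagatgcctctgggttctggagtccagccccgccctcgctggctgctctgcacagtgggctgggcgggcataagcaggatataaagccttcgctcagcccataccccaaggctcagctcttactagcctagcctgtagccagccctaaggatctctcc
Srxn1: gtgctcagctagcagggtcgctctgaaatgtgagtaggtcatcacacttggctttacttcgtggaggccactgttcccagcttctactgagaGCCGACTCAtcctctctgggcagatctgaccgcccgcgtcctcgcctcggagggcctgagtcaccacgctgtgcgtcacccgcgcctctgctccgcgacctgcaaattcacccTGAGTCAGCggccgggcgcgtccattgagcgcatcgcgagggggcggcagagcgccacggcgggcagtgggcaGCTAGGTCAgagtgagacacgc
Gclm: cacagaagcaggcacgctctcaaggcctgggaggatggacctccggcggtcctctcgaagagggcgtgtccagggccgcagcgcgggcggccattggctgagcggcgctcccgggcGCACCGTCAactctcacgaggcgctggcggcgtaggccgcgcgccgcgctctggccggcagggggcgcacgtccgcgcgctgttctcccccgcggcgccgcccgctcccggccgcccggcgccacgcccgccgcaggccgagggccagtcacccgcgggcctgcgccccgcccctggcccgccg
G6pdx: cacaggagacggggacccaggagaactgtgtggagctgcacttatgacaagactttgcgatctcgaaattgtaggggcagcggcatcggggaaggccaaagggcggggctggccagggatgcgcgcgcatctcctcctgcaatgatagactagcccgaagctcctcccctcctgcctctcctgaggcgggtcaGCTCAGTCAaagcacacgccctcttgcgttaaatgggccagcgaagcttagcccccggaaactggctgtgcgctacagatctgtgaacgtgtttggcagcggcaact

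The Nqo1 window holds neither core, and nor does that of Gss. In Srxn1 the first core in capitals begins at position -158, the next at -45 and the last at 29, counted from the annotated start as base 1 with no base 0. The AP-1 letters TGANTCA, present in 7.81% of all windows, begin at -102 and -45 in Srxn1, and the latter match overlaps the core at the same place. The core in Gclm begins at -134 and that in G6pdx at -57. The composite C/EBP-ATF letters TGATGNAA, found in 3.97% of all windows, were in none of the 10 windows. A match of letters is a description and not a measured binding site, and elements outside these windows were not searched.

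Across the 10 genes, the time under MDI moved more of them than the siRNA did. A gene was called when its Benjamini-Hochberg adjusted p was under 0.05 and its absolute log2 fold change over 0.5. From 24 h to 72 h, 6 of the 10 genes were called higher and 2 lower in siCtrl cells. Of all 13829 genes tested there, 22.7% were called higher and 20.4% lower. At any fold 58.9% of them passed the adjusted p, as did 8 of the 10. Among the genes called higher, Gss lost its call in 3 of 6 fits that left out a library and Gsr in 4 of 6. In siPRMT1 cells 3 were called higher and 3 lower, against 19% and 17.4% of 14224 genes. There 10 of the 10 passed the adjusted p, 6 with higher and 4 with lower values, as did 63.4% of all genes tested. Gss, Gsr and Pgd were higher by 0.49, 0.47 and 0.40 on the log2 scale in siPRMT1, under the fold threshold. The median log2 change over time of the 10 was 0.55 in siCtrl and 0.44 in siPRMT1, beside 0.00 over all genes in both.

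**Figure D1:**
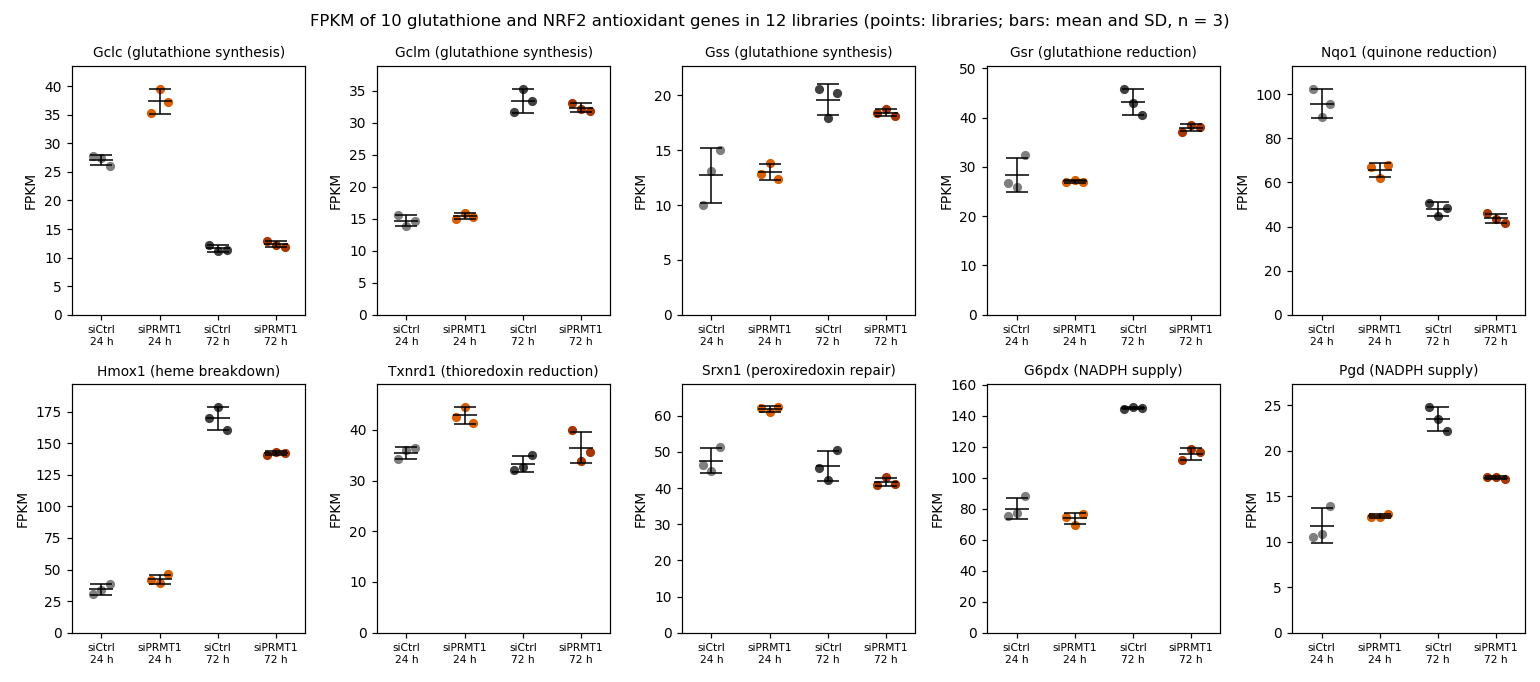
Deposited FPKM (linear axis from 0) of each of the 10 genes in the 12 libraries; points are libraries and bars are the mean and SD of 3 libraries. Nqo1 at 24 h is between 89.5 and 102 in siCtrl and between 62.2 and 68.0 in siPRMT1, and Hmox1 is at 39.1 to 46.2 in siPRMT1 at 24 h and at 141 or above at 72 h in every library.

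Knockdown of PRMT1 changed few of them. At 24 h only Nqo1 was called among the 10, and it was lower; 1.61% of the 13689 genes tested were called lower and 1.95% higher. None was called higher by edgeR or by DESeq2, and 4 had higher values at an unadjusted p under 0.05. The adjusted p alone was passed by 3 of the 10 (Nqo1, Gclc and Srxn1), against 7.6% of all genes tested. Without siCtrl replicate 3 it was passed by 6 of the 10, also Hmox1, Txnrd1 and Pgd with higher values, without siCtrl replicate 1 by 2, and without siCtrl replicate 2 or any of the siPRMT1 libraries by 1, Nqo1. The share of all genes that passed in these fits is not given, so these counts cannot be set against it. At 72 h none of the 10 was called by edgeR or by DESeq2, while 2.84% of 14039 genes were called higher and 3.8% lower. Here 3 of the 10 passed the adjusted p (Hmox1, G6pdx and Pgd, all with lower values), against 16.5% of all genes, and 4 had an unadjusted p under 0.05. The share of all genes at an unadjusted p under 0.05 is not given for either time. Counts at that cutoff, here and below, therefore cannot be set against it. Pgd was called lower at 72 h by edgeR without siCtrl replicate 3 (-0.51) and when a further entry of the same gene was added to it (-0.53). The median log2 difference of the 10 was 0.05 at 24 h and -0.15 at 72 h, beside 0.01 over all genes at both times. FPKM of siCtrl and siPRMT1 did not overlap in 5 of the 10 genes at 24 h and in 4 of the 10 at 72 h, and in 31.7% and 34.2% of all genes tested.

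**Figure D2:**
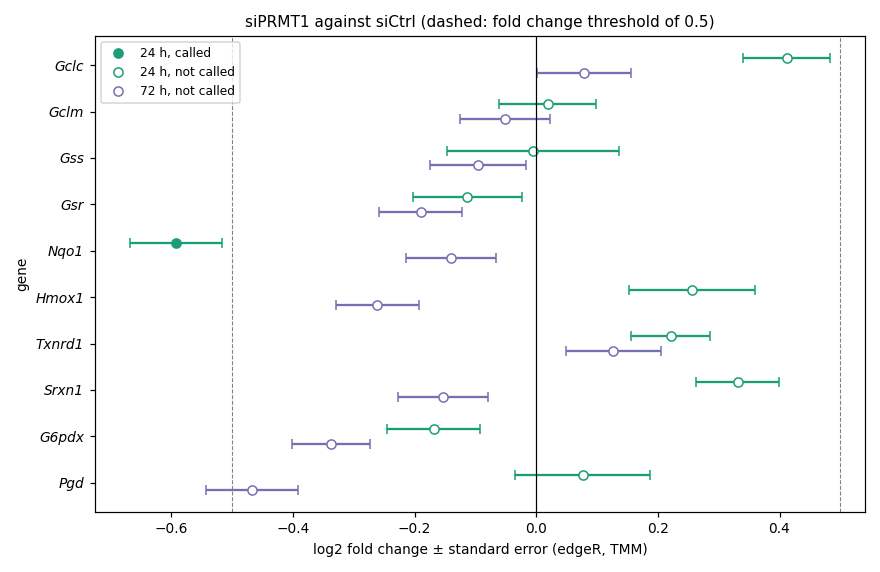
Log2 fold change of siPRMT1 against siCtrl (edgeR with TMM normalization, 3 against 3 libraries) for each gene at 24 h and 72 h, with standard errors; filled points are called. Nqo1 at 24 h (-0.59) is the only filled point, and Pgd at 72 h (-0.47) lies just inside the dashed fold threshold.

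Nqo1 reduces quinones with NADH or NADPH. In siCtrl cells at 24 h its level was 102, 89.5 and 95.4 FPKM, and in siPRMT1 cells it was 67.2, 62.2 and 68.0. The highest siPRMT1 library lay below the lowest siCtrl library. Nqo1 fell by 0.59 ± 0.0758 on the log2 scale (95% interval -0.77 to -0.42, adjusted p = 0.0053), to 0.663 of the siCtrl level. The call was kept in each of 17 alternatives, with log2 differences of -0.64 to -0.53, including that without siCtrl replicate 3. At 72 h Nqo1 was at 50.7, 44.7 and 48.3 FPKM in siCtrl and at 46.1, 43.2 and 41.7 in siPRMT1, and the groups overlapped (log2 difference -0.14 ± 0.0742, adjusted p = 0.21). The order of the 4 groups was thus siCtrl at 24 h, siPRMT1 at 24 h, siCtrl at 72 h and siPRMT1 at 72 h from high to low, of which the last pair was not separated. Nqo1 fell with time by 1.07 ± 0.0884 on the log2 scale in siCtrl (adjusted p = 4.4e-06) and by 0.60 ± 0.0647 in siPRMT1 (adjusted p = 2.0e-06). The knockdown difference moved by 0.47 ± 0.105 between the times (adjusted p = 0.0095), under the fold threshold.

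Among 14612 genes, those whose log2 CPM ran most like that of Nqo1 over the 12 libraries were Hdac1_1 (Pearson r = 0.983), Rab2b (0.980) and Arl6ip1 (0.980). Hdac1_1 is an additional entry of the table for the name Hdac1, a histone deacetylase, and Rab2b is a small GTPase. Arl6ip1 was at 130.5 ± 2.08, 85.7 ± 3.98, 55.7 ± 4.21 and 56.3 ± 7.1 FPKM (SD, n = 3) in siCtrl and siPRMT1 at 24 h and siCtrl and siPRMT1 at 72 h. The libraries share their groups, so these coefficients follow group means and carry no test.

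Gclc and Gclm, which together form the rate-limiting enzyme of glutathione synthesis, went in opposite directions with time. Gclc was at 27.8, 27.4 and 26.1 FPKM in siCtrl at 24 h and at 12.3, 11.2 and 11.4 at 72 h. It fell by 1.29 ± 0.083 on the log2 scale in siCtrl (adjusted p = 7.8e-07). In siPRMT1 cells it was at 35.3, 39.5 and 37.2 FPKM at 24 h and at 12.9, 12.3 and 11.8 at 72 h, and it fell by 1.61 ± 0.0666 (adjusted p = 1.3e-10). Every 24 h library was thus above every 72 h library. Gclm was at 15.5, 13.8 and 14.6 FPKM in siCtrl at 24 h and at 31.6, 35.2 and 33.3 at 72 h. The siPRMT1 levels of Gclm were 14.97, 15.8 and 15.3 at 24 h and 33.1, 32.1 and 31.8 at 72 h. Gclm rose by 1.12 ± 0.0956 on the log2 scale in siCtrl (adjusted p = 5.7e-06) and by 1.06 ± 0.0642 in siPRMT1 (adjusted p = 6.0e-09).

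**Figure D3:**
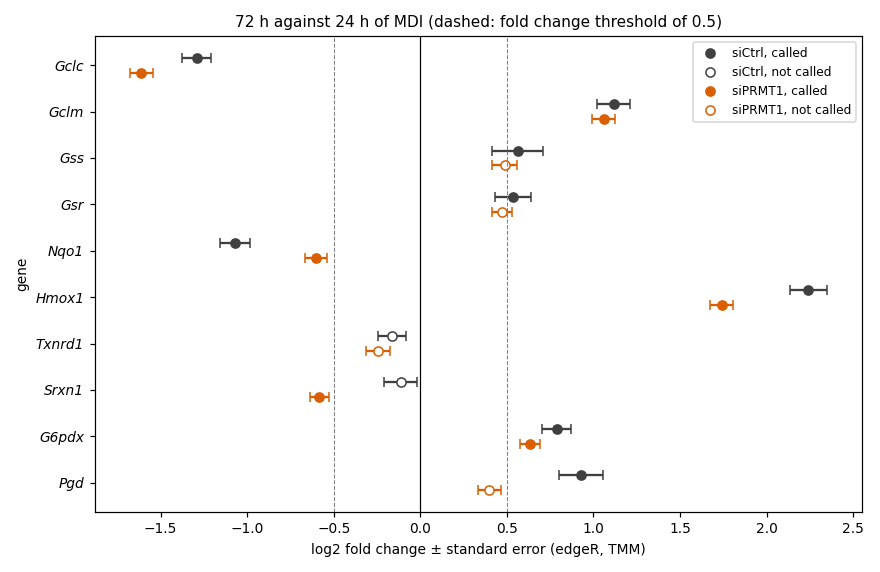
Log2 fold change of 72 h against 24 h of MDI (edgeR with TMM normalization, 3 against 3 libraries) in siCtrl and in siPRMT1 cells, with standard errors; filled points are called. Gclc and Nqo1 lie to the left and Gclm, Hmox1 and G6pdx to the right in both cell groups, and Hmox1 reaches 2.24 in siCtrl.

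With knockdown at 24 h, Gclc was higher in all 3 siPRMT1 libraries than in any siCtrl library (log2 difference 0.41 ± 0.0716, adjusted p = 0.016), under the fold threshold. This adjusted p was lost without siCtrl replicate 2 or any of the siPRMT1 libraries, 4 of the 6 fits that left out a library, and was then 0.094 at its highest. Gclm did not differ beyond its spread (0.02 ± 0.0798 on the log2 scale, 95% interval -0.16 to 0.20). At 72 h neither subunit passed the test, with log2 differences of 0.08 ± 0.0771 for Gclc and -0.05 ± 0.0744 for Gclm. The Gclc difference moved by -0.31 ± 0.0972 between the times (adjusted p = 0.0486). The ratio of Gclc to Gclm FPKM, a measure chosen after the values were seen and given without a test, was 1.78 to 1.98 in siCtrl and 2.36 to 2.49 in siPRMT1 at 24 h. By 72 h it was 0.319 to 0.388 in siCtrl and 0.372 to 0.389 in siPRMT1, so the siRNA groups were apart at 24 h and overlapped at 72 h.

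**Figure D4:**
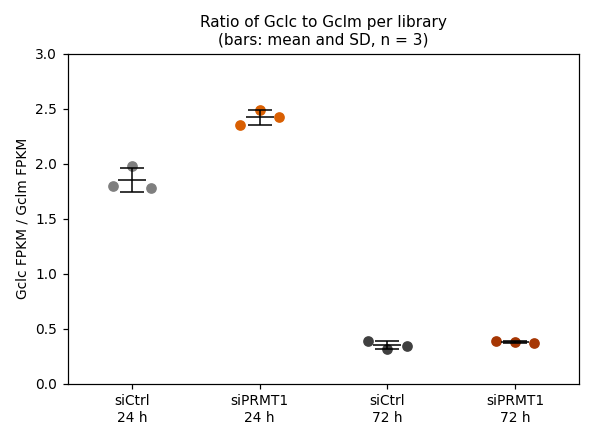
Ratio of Gclc to Gclm FPKM in each library (linear axis from 0; points are libraries, bars the mean and SD of 3). The means are 1.85 in siCtrl and 2.43 in siPRMT1 at 24 h, and 0.349 and 0.381 at 72 h.

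Gss, the enzyme that adds glycine in the last step of glutathione synthesis, was at 9.97, 13.1 and 15 FPKM in siCtrl at 24 h, the widest relative spread of a group among the 10 genes. Its level was 12.8, 13.8 and 12.4 in siPRMT1 at 24 h, and 20.6, 17.96 and 20.2 in siCtrl and 18.4, 18.8 and 18.1 in siPRMT1 at 72 h. The siRNA groups overlapped at both times, with log2 differences of -0.01 ± 0.141 and -0.10 ± 0.0788. Gss rose by 0.56 ± 0.146 on the log2 scale with time in siCtrl (adjusted p = 0.0076), and this call fell under the fold threshold in 3 of 6 fits that left out a library (siCtrl replicate 1 at 24 h, replicate 1 or replicate 3 at 72 h; lowest value 0.39). In siPRMT1 its change of 0.49 ± 0.0725 (adjusted p = 4.8e-05) lay under the fold threshold. The exons of Gss overlap those of LOC102636309 on the opposite strand, which held 256 counts over the 12 libraries beside 9091 for Gss.

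Gsr, glutathione reductase, was at 26.7, 25.9 and 32.4 FPKM in siCtrl at 24 h, with replicate 3 the highest, and at 26.8, 27.4 and 26.9 in siPRMT1. At 72 h it was at 45.8, 43.0 and 40.5 in siCtrl and at 37.1, 38.6 and 38.0 in siPRMT1. The siRNA groups overlapped at 24 h and were apart at 72 h. The knockdown differences were -0.11 ± 0.09 at 24 h and -0.19 ± 0.0687 at 72 h on the log2 scale, and neither passed the adjusted p (0.49 and 0.072). With the replicate block in edgeR, the Gsr difference at 72 h passed (-0.19, adjusted p = 0.036), under the fold threshold. Gsr rose by 0.53 ± 0.106 with time in siCtrl (adjusted p = 0.0016), a call that 4 of 6 fits without a library (siCtrl replicate 1 or 2 at 24 h, replicate 1 or 2 at 72 h) brought under the fold threshold, to 0.46 at the lowest. In siPRMT1 the change was 0.47 ± 0.0557 (adjusted p = 5.2e-06), just under it.

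Hmox1, the inducible heme oxygenase, had the largest change with time of the 10 genes. In siCtrl it was at 30.3, 33.6 and 38.8 FPKM at 24 h and at 170.2, 179 and 160.1 at 72 h. In siPRMT1 it was at 41.4, 39.1 and 46.2 at 24 h and at 141, 143 and 143 at 72 h. None of the 4 groups overlapped with its neighbour, siPRMT1 being above siCtrl at 24 h and below it at 72 h. Hmox1 rose by 2.24 ± 0.109 on the log2 scale in siCtrl (adjusted p = 1.3e-07), 4.73-fold, and by 1.74 ± 0.0649 in siPRMT1 (adjusted p = 4.9e-11), 3.34-fold. The knockdown difference was 0.26 ± 0.103 at 24 h (adjusted p = 0.17) and -0.26 ± 0.0681 at 72 h (adjusted p = 0.016). Without siCtrl replicate 3 the Hmox1 difference at 24 h was 0.35 ± 0.0755 and passed (adjusted p = 0.0043), under the fold threshold. That at 72 h lost the adjusted p without siCtrl replicate 2 (0.093), without siPRMT1 replicate 2 (0.073), with all 12 libraries in 1 model (0.059) and in limma without its filter (0.068). Between the times the difference moved by -0.50 ± 0.127 (adjusted p = 0.020).

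Txnrd1, the cytosolic thioredoxin reductase, and Srxn1, which repairs overoxidised peroxiredoxins, changed little in siCtrl between the times. Txnrd1 was at 34.2, 36.0 and 36.4 FPKM at 24 h and at 32.0, 32.7 and 35.0 at 72 h in siCtrl, and at 42.6, 44.5 and 41.3 and at 39.9, 33.9 and 35.7 in siPRMT1. The groups did not overlap at 24 h, yet the log2 difference of 0.22 ± 0.0646 missed the adjusted p (0.078), as did 0.13 ± 0.0786 at 72 h (0.29). Without siCtrl replicate 3 the Txnrd1 difference at 24 h was 0.23 ± 0.0569 and passed (adjusted p = 0.0090), under the fold threshold. By limma with its filter it also passed, at 0.26 on log2(FPKM + 1) (adjusted p = 0.047) and 0.27 on log2(FPKM + 0.1) (adjusted p = 0.048). Srxn1 was at 46.3, 44.8 and 51.4 FPKM in siCtrl and at 62.1, 61.0 and 62.5 in siPRMT1 at 24 h, so every siPRMT1 library was above every siCtrl library. Its log2 difference was 0.33 ± 0.0683 (adjusted p = 0.026), under the fold threshold, and this adjusted p was lost in 5 of 6 fits that left out a library (0.13 at its highest), all but that without siCtrl replicate 3. Srxn1 at 72 h was at 45.4, 42.2 and 50.6 in siCtrl and at 40.8, 43.0 and 41.2 in siPRMT1, with overlap (log2 difference -0.15 ± 0.0742, adjusted p = 0.17). With time Srxn1 fell by 0.58 ± 0.0538 on the log2 scale in siPRMT1 (adjusted p = 4.5e-07), and its change in siCtrl was -0.11 ± 0.0959 (adjusted p = 0.33). The test of the difference between these changes gave -0.46 ± 0.107 (adjusted p = 0.011), under the fold threshold. Exons of Txnrd1 overlap those of Gm38560 on the opposite strand, which held 122 counts beside 43347 for Txnrd1.

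G6pdx and Pgd, the dehydrogenases of the oxidative pentose phosphate pathway, rose with time in siCtrl and had lower values with knockdown at 72 h, by less than the fold threshold. G6pdx was at 75.3, 77.0 and 88.0 FPKM in siCtrl and at 74.9, 69.5 and 76.8 in siPRMT1 at 24 h, and at 145, 146 and 145 in siCtrl and 111, 118 and 117 in siPRMT1 at 72 h. Only the 72 h groups were apart. G6pdx rose by 0.79 ± 0.083 on the log2 scale in siCtrl (adjusted p = 2.3e-05) and by 0.63 ± 0.0562 in siPRMT1 (adjusted p = 3.0e-07). Its knockdown difference was -0.17 ± 0.0759 at 24 h (adjusted p = 0.22) and -0.34 ± 0.0638 at 72 h (adjusted p = 0.0022). The exons of G6pdx overlap those of Ikbkg on the opposite strand, which held 20402 counts beside 76196 for G6pdx. Reads in the shared bases could not be told apart without a strand setting, which is not given in the sources used here. How many reads lay there is not known. Ikbkg itself was not called with knockdown (log2 difference -0.21 ± 0.0722 at 24 h and 0.04 ± 0.0822 at 72 h).

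Pgd was at 10.5, 10.9 and 13.96 FPKM in siCtrl and at 12.7, 12.7 and 13.0 in siPRMT1 at 24 h, with overlap, siCtrl replicate 3 being the highest library. By 72 h it was at 24.8, 23.5 and 22.2 in siCtrl and at 17.1, 17.2 and 16.9 in siPRMT1, and the groups were apart. Pgd rose by 0.93 ± 0.125 on the log2 scale with time in siCtrl (adjusted p = 1.3e-04), and its change in siPRMT1 was 0.40 ± 0.0655 (adjusted p = 1.2e-04), under the fold threshold. The knockdown differences were 0.08 ± 0.111 at 24 h (adjusted p = 0.73) and -0.47 ± 0.0756 at 72 h (adjusted p = 5.9e-04). At 24 h the Pgd value was 0.21 ± 0.0717 without siCtrl replicate 3 (adjusted p = 0.046) and -0.000396 without siCtrl replicate 1. It was the only one of the 10 genes called for the interaction of siRNA and time, at -0.52 ± 0.14 (adjusted p = 0.025), where 3.47% of 14612 genes were called lower and 4.77% higher. The call was lost in 7 of 12 fits that left out a library (siCtrl replicate 1 or siPRMT1 replicate 1 or 3 at 24 h, siCtrl replicate 1 or 2 or siPRMT1 replicate 2 or 3 at 72 h), with adjusted p up to 0.068. The adjusted p alone was passed there by 5 of the 10 genes (Gclc, Nqo1, Hmox1, Srxn1 and Pgd), against 12.3% of all genes. With a library left out it was passed by 2 to 6, and the share of all genes is not given for those fits. The table lists Pgd a second time, as Pgd_1 on an alternate scaffold, and that entry held 65.9% to 84.1% as many counts as Pgd in each library. Pgd_1 was at 21.1, 18.2 and 17.0 FPKM in siCtrl and at 12.5, 12.9 and 11.7 in siPRMT1 at 72 h and was called lower (-0.61 ± 0.0909, adjusted p = 3.4e-04). With both entries summed, chosen after seeing the data, Pgd was called lower with knockdown at 72 h (-0.53, adjusted p = 1.9e-04). How reads that fit both entries were assigned is not given in the sources used here.

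The other genes of the pathway were described by 6 lists, in each of which DESeq2 made as many calls as edgeR in either direction at both times. Nfe2l2, which encodes NRF2, was at 37.2 ± 0.682 and 40.6 ± 1.96 FPKM (SD, n = 3) in siCtrl and siPRMT1 at 24 h and at 40.4 ± 2.37 and 37.9 ± 1.44 at 72 h. It was called in none of the 5 comparisons by edgeR, with log2 values of 0.07 and -0.09 for knockdown at 24 h and 72 h, 0.05 and -0.11 for time in siCtrl and siPRMT1 and -0.15 for the interaction. Keap1 rose by 0.59 ± 0.0904 with time in siCtrl (adjusted p = 3.2e-04), and its change in siPRMT1 was 0.27 ± 0.0668. Knockdown gave Keap1 log2 differences of 0.08 at 24 h and -0.25 at 72 h (adjusted p = 0.035), and the interaction was -0.31. That adjusted p at 72 h reached 0.15 over the alternatives. Bach1 fell by 0.70 ± 0.106 with time in siCtrl (adjusted p = 3.0e-04) and changed by -0.46 ± 0.0681 in siPRMT1. Its knockdown differences were -0.06 and 0.16, and its interaction 0.24. mRNA levels do not measure the amount of NRF2 protein.

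Among 11 NRF2 regulators, 1 was called higher and 0 lower at 24 h (median log2 difference 0.08, beside 0.01 over all genes). That gene was Maff, a small MAF partner, at 1.39 ± 0.147 FPKM in siCtrl and 2.45 ± 0.391 in siPRMT1 (0.76 ± 0.158 on the log2 scale, adjusted p = 0.027), a call lost in 5 of 6 fits that left out a library and kept without siCtrl replicate 3. Mafg (0.40 ± 0.0653) and Nfe2l1 (0.32 ± 0.0616) passed the adjusted p alone. List genes described in this way, here and below, each lost it in some alternative. Their highest adjusted p over the alternatives ran from 0.061 (Me1 at 72 h) to 0.22 (Gstm2 at 72 h). At 72 h 0 were called higher and 1 lower (median -0.02), and that gene was again Maff, at 5.41 ± 0.526 FPKM in siCtrl and 3.1 ± 0.286 in siPRMT1 (-0.81 ± 0.115, adjusted p = 2.1e-04). The sign of the Maff difference thus turned between the times.

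Of the 16 genes of cystine uptake, glutathione turnover and peroxidases, 14 were tested at 24 h, with 1 called higher, 1 lower and a median of -0.13. Chac1, which degrades glutathione, rose from 7.86 ± 1.03 to 19.3 ± 1.109 FPKM with knockdown (1.24 ± 0.108 on the log2 scale, adjusted p = 0.0022). The gene called lower was Oplah, 5-oxoprolinase (-0.52 ± 0.128, adjusted p = 0.047), named after its values were seen. That call was lost in 5 of 6 fits that left out a library, and without siCtrl replicate 3 the value was -0.37. Slc3a2, the heavy chain of the cystine transporter (0.34 ± 0.0719), and Glrx, a glutaredoxin (-0.32 ± 0.0776), passed the adjusted p alone. At 72 h all 16 were tested, with 0 higher and 1 lower and a median of -0.07. Chac1 was then lower with knockdown, at 18.1 ± 0.168 FPKM in siCtrl and 11.6 ± 0.469 in siPRMT1 (-0.65 ± 0.0827, adjusted p = 7.6e-05). Gpx8, a peroxidase of the endoplasmic reticulum (0.44 ± 0.0855), and Slc7a11, the cystine transporter (-0.46 ± 0.0985), stayed under the fold threshold.

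**Figure D5:**
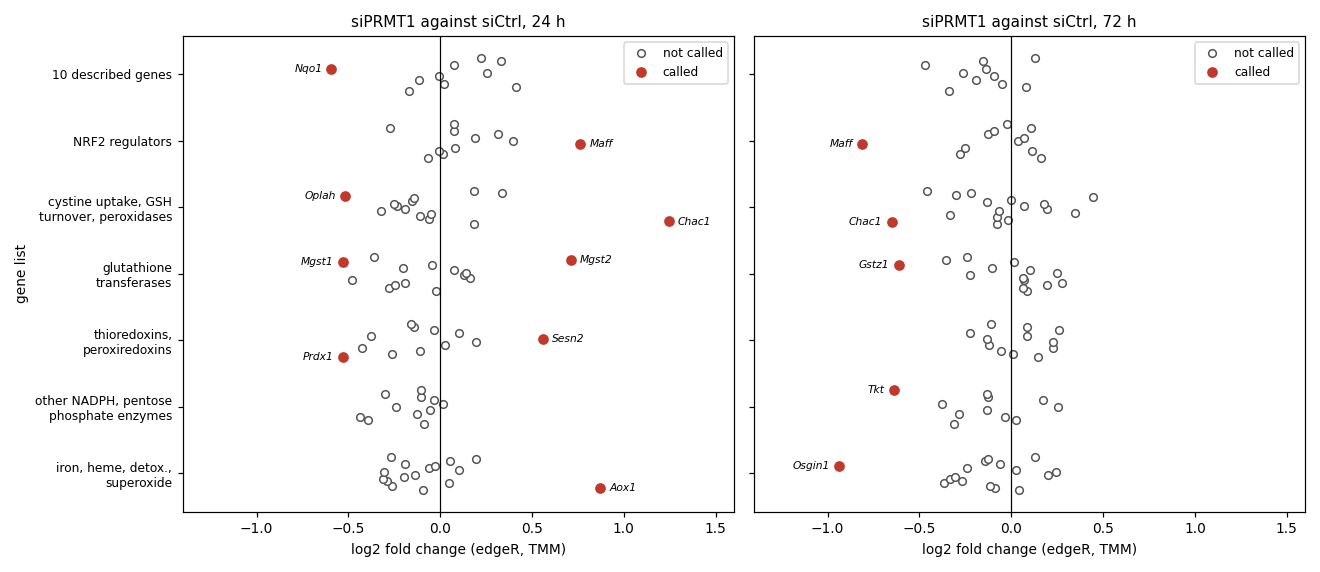
Log2 fold change of siPRMT1 against siCtrl for every tested gene of the 10 described genes and of 6 lists of other pathway genes, at 24 h (left) and 72 h (right); each point is a gene and filled points are called. The filled points are Nqo1 and 8 list genes at 24 h and 5 list genes at 72 h, all 5 of them to the left of 0.

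Glutathione transferases, which attach glutathione to foreign and endogenous compounds, had 1 gene called higher and 1 lower of 14 tested at 24 h (median -0.12) and 0 and 1 of 14 at 72 h (median 0.06). At 24 h Mgst1, a microsomal transferase, fell from 153 ± 5.66 to 109.6 ± 5.14 FPKM (-0.53 ± 0.0653, adjusted p = 0.0045); by limma, on the log2(FPKM + 1) and log2(FPKM + 0.1) scales, it was -0.48, under the fold threshold. Mgst2 rose from 1.14 ± 0.18 to 1.93 ± 0.15 FPKM (0.71 ± 0.163, adjusted p = 0.037), a call lost in 5 of 6 fits that left out a library and kept without siCtrl replicate 3. Gstm5 (-0.48 ± 0.108) was under the fold threshold, and reads of the similar Gstm genes may be split between copies. At 72 h Gstz1, which also acts in tyrosine breakdown, fell from 58.5 ± 2.52 to 38.4 ± 1.01 FPKM (-0.61 ± 0.0669, adjusted p = 2.1e-05). Mgst3 (-0.24 ± 0.0681) and Gstm2 (0.28 ± 0.0899) passed the adjusted p alone.

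Thioredoxins and peroxiredoxins had 1 gene called higher and 1 lower of 12 tested at 24 h (median -0.13) and 0 of 12 by edgeR or DESeq2 at 72 h (median 0.05), where 4 had an unadjusted p under 0.05. Prdx1, an abundant peroxiredoxin, fell from 293 ± 9.91 to 209.5 ± 8.19 FPKM at 24 h (-0.53 ± 0.0608, adjusted p = 0.0035), and by limma on the same scales it too was at -0.48, under the fold threshold. Sesn2, a stress-inducible sestrin, rose from 24.98 ± 3.43 to 38.1 ± 0.674 FPKM (0.56 ± 0.0956, adjusted p = 0.015), a call lost in 5 of 6 fits that left out a library and kept without siCtrl replicate 3. Prdx4 (-0.43 ± 0.0839) was under the fold threshold. At 72 h Txnip (0.26 ± 0.0678), Prdx6 (0.22 ± 0.0648) and Txn2 (-0.23 ± 0.0728) had the smallest p and lay under it too.

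Among 11 other NADPH and pentose phosphate enzymes, 0 were called at 24 h by edgeR or DESeq2, 4 had an unadjusted p under 0.05 and 10 of the 11 values were negative (median -0.11). Idh1 (-0.39 ± 0.0585, adjusted p = 0.0088) and Idh2 (-0.44 ± 0.0765, adjusted p = 0.016), the NADP-dependent isocitrate dehydrogenases, passed the adjusted p alone, and Taldo1 (-0.30 ± 0.0945) did not. At 72 h 0 were called higher and 1 lower (median -0.13). This was Tkt, transketolase of the non-oxidative pentose phosphate branch, which fell from 141 ± 4.92 to 91.0 ± 7.04 FPKM (-0.64 ± 0.0726, adjusted p = 3.1e-05). Pgls (-0.37 ± 0.0958) and Me1, malic enzyme (-0.29 ± 0.0683), passed the adjusted p alone.

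In the list of 16 iron, heme, detoxification and superoxide genes, 1 was called higher and 0 lower at 24 h (median -0.11). Aox1, aldehyde oxidase, rose from 1.35 ± 0.216 to 2.56 ± 0.219 FPKM (0.87 ± 0.137, adjusted p = 0.011), a call lost without siPRMT1 replicate 2 (0.066) or without siPRMT1 replicate 3 (0.082). Fth1, ferritin heavy chain (-0.30 ± 0.0518), and Ugdh (-0.27 ± 0.0648) were under the fold threshold. At 72 h 0 were called higher and 1 lower (median -0.12). Osgin1, an NRF2 target that inhibits growth, fell from 12.7 ± 1.5 to 6.61 ± 0.705 FPKM (-0.94 ± 0.109, adjusted p = 3.4e-05), and Blvrb (-0.37 ± 0.0858) and Cbr3 (-0.31 ± 0.0717) passed the adjusted p alone.

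Adipocyte markers moved with both the time and the siRNA. Of the 9, 4 of 8 tested were called lower and 0 higher with knockdown at 24 h (6 lower by DESeq2), and 4 of 9 lower and 0 higher at 72 h. Of the 9 preadipocyte and fibroblast markers, 0 were called at 24 h by edgeR or DESeq2, with 4 at an unadjusted p under 0.05, and 2 were called higher at 72 h. In bulk samples, fewer cells of a type and less RNA per cell cannot be told apart. The part of these shifts in the values of the 10 genes was not tested.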

How the data were processed

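mRNA libraries of 12 samples of 3T3-L1 cells, 3 in each of 4 groups, were described per the labels as siCtrl (NC) or siPRMT1 with MDI for 24 h or 72 h. Per the submitters' processing notes and the study's methods, the authors trimmed reads (cutadapt 1.11) before alignment to mouse transcripts of mm10 (HISAT2 2.1.0). RSEM 1.2.6 is named without a role, and strand setting and treatment of multi-mapping reads are not given in the sources used here. The deposited counts are whole numbers per gene without normalization. The deposited FPKM are the authors' scaling of the counts by listed length and library total, and recomputing them gave differences of at most 0.005. Of 39423 genes, 26095 had a count. Library totals ran from 15116462 to 42357137, and a count of 0 allows up to 3 counts in a library; this covers counting error only.

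Counts were tested over all genes with edgeR 4.0.16 (R 4.3.3; TMM, filterByExpr, quasi-likelihood test, Benjamini-Hochberg adjustment), each contrast on its own libraries and the interaction on all 12. Calls needed an adjusted p below 0.05 with a log2 fold change beyond 0.5 in size, and standard errors were taken as the size of the log2 fold change over the square root of F. The scripts were tested on simulated data. Alternatives were DESeq2 1.42.0, RLE, no filter, a minimum of 10 counts per library, the replicate block, no fold threshold, 1 model for all libraries, limma 3.58.1 on log2(FPKM + 1) for genes averaging 1 FPKM or more, a pseudocount of 0.1, no FPKM filter, each library left out, and, added after seeing the data, the sum of Pgd and Pgd_1. The members and lists were chosen with earlier results of these data known. Named are all 10 genes, the 3 genes with the smallest p per list and knockdown contrast, Nfe2l2, Keap1, Bach1 and Prmt1, and the 3 genes most like each member called with knockdown. Sequences come from the RefSeq promoter table. Authors' comparisons were not used.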

Additional observations from a re-analysis of the deposited data

Results flagged for a closer look

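For 5 of the 10 genes the test of the interaction of siRNA and time passed the adjusted p, so that the knockdown difference was read as unequal at 24 h and 72 h (edgeR's quasi-likelihood test over all 12 libraries, adjusted p under 0.05). Of all 14612 genes tested, 12.3% passed it. For the fits without a library the share of all genes is not given. The count among the 10 was 2 without siCtrl replicate 2 at 72 h, siPRMT1 replicate 3 at 24 h or siPRMT1 replicate 2 at 72 h. It was 3 without siCtrl replicate 1 or siPRMT1 replicate 1 at 24 h or without siCtrl replicate 1 or siPRMT1 replicate 3 at 72 h, and 6 without siCtrl replicate 3 at 24 h. The value is the knockdown difference at 72 h minus that at 24 h on the log2 scale. It was -0.31 for Gclc (adjusted p = 0.0486), which passed without a margin, with adjusted p between 0.012 and 0.25 over its alternatives. For Nqo1 it was 0.47 (adjusted p = 0.0095, range 5.1e-04 to 0.035), the only positive value of the 5. It was -0.50 for Hmox1 (adjusted p = 0.020, range 4.4e-04 to 0.070) and -0.46 for Srxn1 (adjusted p = 0.011, range 3.9e-04 to 0.035). Pgd had -0.52 (adjusted p = 0.025, range 1.2e-04 to 0.068). The fitted difference had opposite signs at 24 h and 72 h in Hmox1, Srxn1 and Pgd, but a side of each did not pass the adjusted p on its own: Hmox1 and Pgd at 24 h (0.17 and 0.73) and Srxn1 at 72 h (0.17).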

How the results depend on the processing

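Over the 10 genes and 5 comparisons, 836 of 900 values under the alternatives kept their direction and whether the gene was called. A further 15 lost a call, 36 gained one and 13 changed sign. Values that crossed the adjusted p threshold without a change of call count as kept. Without a threshold on the fold change, 2 of the 10 genes were called higher at 24 h and 3 lower at 72 h. In that setting 6 were higher with time in siPRMT1, and for the interaction 4 were lower and 1 higher. Of all genes tested, 7.6%, 16.5%, 63.4% and 12.3% passed there in the same order, both directions together. For the settings that follow, the share of all genes called is not given, so their counts cannot be set against it. With Pgd and Pgd_1 summed, 1 gene was called lower at 72 h. Leaving out a library gave 0 to 1 called lower at 72 h (1 without siCtrl replicate 3). For the interaction, DESeq2, RLE normalization and at least 10 counts in every library each gave 2 called lower, limma gave 3 with either pseudocount and without its filter, and no filter on low counts gave 0 lower and 1 higher. Leaving out a library gave 0 to 3 called lower and 0 to 1 higher there, with 3 lower without siCtrl replicate 3 at 24 h and 0 without siCtrl replicate 1 at 24 h, siPRMT1 replicate 3 at 24 h, siPRMT1 replicate 2 at 72 h or siPRMT1 replicate 3 at 72 h; 1 was higher without siCtrl replicate 1 at 72 h or siPRMT1 replicate 3 at 72 h. The share of all genes passing the adjusted p at 24 h is given above for the full fit only. At 24 h the adjusted p alone was passed by 1 to 6 of the 10 genes with a library left out: 6 without siCtrl replicate 3, 2 without siCtrl replicate 1 and 1 without any of the other 4. Apart from the fits with fewer libraries or no fold threshold, the cause was not tested.

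Signs turned where differences were near 0. At 24 h, Gss was at 0.00638 with the replicate block, 0.0497 by limma with and without its filter, 0.0545 with the pseudocount of 0.1 and -0.16 to 0.14 with a library left out. Gclm was at -0.0118 with all 12 libraries in 1 model and -0.0261 to 0.0672 with a library left out. Leaving out a library gave -0.000396 to 0.206 for Pgd and -0.169 to 0.00809 for Bach1 at 24 h, -0.0278 to 0.0534 for Nfe2l2 with time in siCtrl, and -0.248 to 0.0896 for Gss and -0.0952 to 0.000538 for Gclm for the interaction. Whether the replicate numbers pair the samples was not settled. Correlations of the deviations of same-numbered libraries ran from -0.17 to 0.22, and no comparison had all of them over 0.1. Those of differently numbered libraries ran from -0.26 to 0.21. With 3 libraries per group, these values cannot exclude a pairing. The replicate block changed no call among the 10 genes; Nqo1 was called lower at 24 h with it too. Of the list genes called at 24 h, limma without its filter lost Maff, Mgst1, Mgst2, Prdx1, Aox1 and Oplah. Depth limits what can be read of genes at a few FPKM, such as Maff, Mgst2 and Aox1 at 24 h.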
